A study of Mus musculus with 8 samples.

Results

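Left ventricles of male wild-type C57BL/6J mice were profiled by RNA-seq after 7 days of infusion through a subcutaneous osmotic pump, with saline in the 4 control samples and with a pressor dose (1500 ng/kg/min) of the peptide angiotensin II (ANG II) in the 4 ANG II samples. Apart from the infused agent, no allele or treatment separated the groups in the labels, and the age of the mice was not given. The laminins and the proteins that link them into basement membranes were examined here as 10 genes chosen by name: the laminin chains Lama2, Lama4, Lama5, Lamb1, Lamb2 and Lamc1, the nidogens Nid1 and Nid2, Hspg2 (perlecan) and Agrn (agrin). All 10 were present among the 55679 genes of the deposited table, and all 10 passed the filter on low values (a mean over the libraries of 0.1 FPKM or more), which left 19364 genes to test. FPKM is a fragment count divided by transcript length and by the library's total. The paper calls its samples biological replicates, but describes more of them per group than the 4 analysed here, and the labels do not tie a library to an animal. The p-values describe the spread between these samples, and how much of it is technical was not tested.

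Laminins are cross-shaped proteins of the basement membrane, each assembled inside the cell from an alpha, a beta and a gamma chain. The alpha chain carries the domains that bind integrins and dystroglycan on the cell surface, while nidogens tie the laminin network to type IV collagen and the heparan sulfate proteoglycans perlecan and agrin make further bridges. In the heart such a sheet surrounds every cardiomyocyte and lies under the endothelium of every vessel, and loss of the alpha chain encoded by Lama2 causes a congenital muscular dystrophy.

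The libraries held 14455656 to 16564828 fragments, as recovered from the step size of the deposited values, and the 10 genes were covered by 291 to 14683 fragments per library. The lowest coverage was that of Nid2, where counting error alone was 5.86% of the value. One protocol field names CRC cells as the source of the RNA, whereas every other label names the left ventricle. The cardiomyocyte genes were high, with Myl2 (ventricular myosin light chain) at a mean of 10947 FPKM in the control group, and the summed level of 7 epithelial markers was 0.495 to 1.22 FPKM in control and 2.07 to 3.62 FPKM in ANG II libraries. Fragments of mitochondrial genes made up an estimated 26.3 to 27.0% of each control library and 19.2 to 21.8% of each ANG II library. FPKM are relative to the library total, and scalings that do not use that total are given beside the calls.

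Of the 10 genes, 7 were higher in the ANG II group (limma, adjusted p under 0.05 and an absolute log2 fold change above 0.5), and 0 were lower, also by voom on recovered fragments or at an unadjusted p under 0.05. Across all tested genes, 14.0% were called higher, 1.41% lower and 15.4% in either direction. An adjusted p under 0.05 with a higher value in the ANG II group was found for 9 of the 10 genes and for 28.4% of tested genes. The groups did not overlap, with ANG II higher, for 9 of the 10 genes, compared with 28.7% of tested genes. The median log2 fold change was 0.57 for the 10 genes and 0.15 for all tested genes. Nid1, Nid2 and Lamc1 were called higher under each of 3 other scalings (median of ratios, quantile, and removal of mitochondrial genes and the 10 most abundant genes), which called 8.62%, 7.32% and 10.2% of genes higher. With voom on recovered fragments the number was again 7, against 18.9% of genes. Lamb1, Lama2, Hspg2 and Lama4 fell below the fold threshold under each of those 3 scalings, where their adjusted p stayed at 0.0201 or lower, and the direction of Lamb2 flipped.

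**Figure D1:**
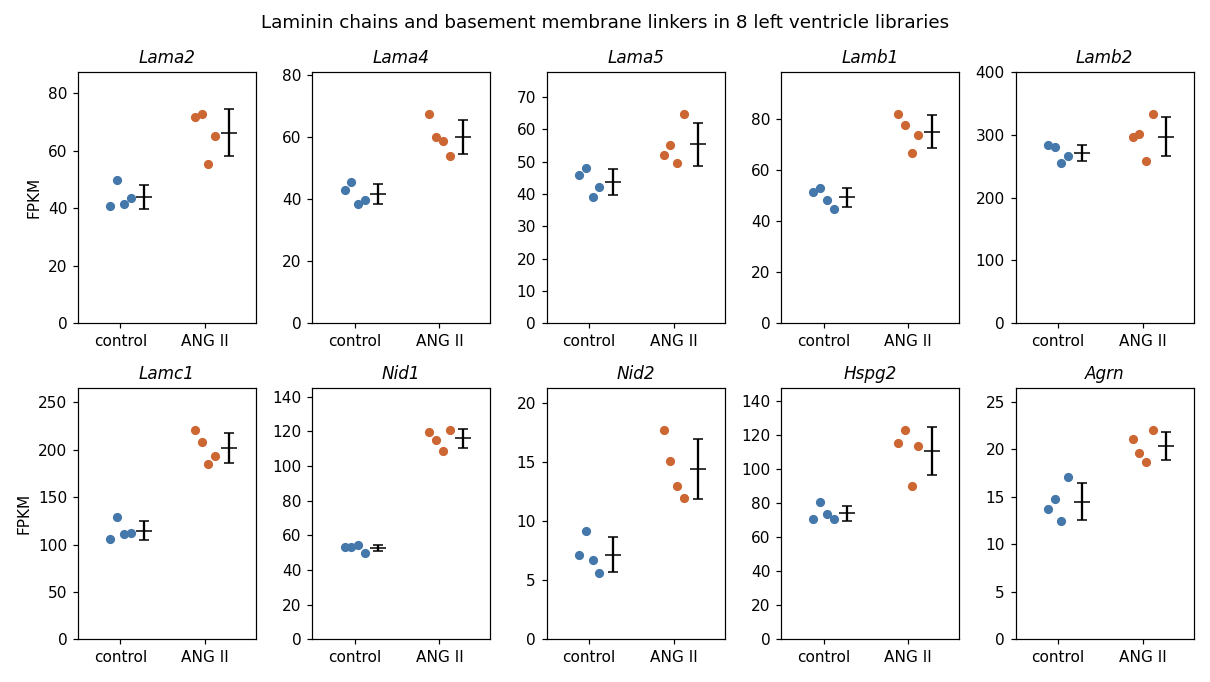
FPKM of the 10 genes in each library (vertical axis from 0, 1 panel per gene), with the 4 control libraries in blue, the 4 ANG II libraries in orange, and the mean ± SD of each group as a black bar. The groups are apart in 9 panels, and in the Lamb2 panel the lowest ANG II library (258 FPKM) lies among the controls (255 to 283 FPKM).

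Lamc1 encodes the gamma chain shared by most laminins of heart and vessel walls. Its FPKM was 106, 130, 111 and 112 in control libraries 1 to 4 and 221, 208, 185 and 193 in ANG II libraries 1 to 4. The lowest ANG II library was thus well above the highest control. Lamc1 rose from 115 ± 10.3 to 202 ± 15.9 FPKM (mean ± SD over 4 libraries per group). Its log2 fold change was 0.81, with an SE of 0.0754 and an adjusted p of 5.97e-05 by limma, the largest of the 6 laminin chains under the deposited scaling. The chain is encoded on the minus strand of chromosome 1 (GRCm38, chr1:153218922-153332786), where the annotation lists 5 transcripts.

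The beta chains separated. Lamb1, the beta chain of developing and vascular basement membranes, measured 51.1, 52.9, 48.1 and 44.5 FPKM in the controls and 81.9, 77.4, 66.7 and 73.8 FPKM in the ANG II libraries. Every ANG II value lay above every control value, and the mean rose from 49.2 ± 3.70 to 74.9 ± 6.43 FPKM (log2 fold change 0.60, SE 0.0752, limma adjusted p = 2.95e-04). Lamb2, the beta chain of the neuromuscular junction, the kidney filter and mature muscle, measured 283, 281, 255 and 267 FPKM in the controls against 297, 301, 258 and 333 FPKM with ANG II. Here the groups overlapped, and the means of 271 ± 13.2 and 297 ± 31.0 FPKM gave a log2 difference of 0.13 (SE 0.0758, limma adjusted p = 0.234; 0.0374 to 0.877 over the alternative settings), with a 95% interval of -0.0429 to 0.30. Under the 3 other scalings the Lamb2 difference was -0.10, -0.0255 and -0.0204.

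Because the beta pair moved apart, the windows around their annotated starts are shown, together with that of Nid1, which had the largest fold change of the 10 genes. They come from the RefSeq promoter table for GRCm38.p6, which held 7 of the 10 genes in 8 windows (Agrn in 2) and not Lama4, Lamc1 and Nid2. The last 25 bases of each window were looked for in the GENCODE M21 transcripts of its gene, and were found for 7 of the 8 windows. Each runs 5′ to 3′ on the plus strand, from 250 bases before to 50 bases after the start, at chr12:31265043-31265342 for Lamb1, chr9:108479612-108479911 for Lamb2 and chr13:13437352-13437651 for Nid1. Capitals mark 4 motifs searched on both strands: the GC box GGGCGG, the CCAAT box, the AP-1 site TGANTCA and the TEAD site GGAATG.
Lamb1: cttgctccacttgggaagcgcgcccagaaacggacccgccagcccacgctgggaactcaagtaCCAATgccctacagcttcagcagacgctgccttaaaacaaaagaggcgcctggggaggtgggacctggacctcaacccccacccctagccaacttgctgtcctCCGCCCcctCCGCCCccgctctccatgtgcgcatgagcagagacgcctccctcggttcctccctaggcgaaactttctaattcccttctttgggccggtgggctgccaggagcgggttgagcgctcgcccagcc
Lamb2: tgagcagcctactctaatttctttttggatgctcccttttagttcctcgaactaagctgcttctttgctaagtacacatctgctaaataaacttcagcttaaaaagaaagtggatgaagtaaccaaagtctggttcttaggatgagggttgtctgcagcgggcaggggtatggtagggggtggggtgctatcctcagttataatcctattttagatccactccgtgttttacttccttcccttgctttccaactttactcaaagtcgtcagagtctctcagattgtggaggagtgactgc
Nid1: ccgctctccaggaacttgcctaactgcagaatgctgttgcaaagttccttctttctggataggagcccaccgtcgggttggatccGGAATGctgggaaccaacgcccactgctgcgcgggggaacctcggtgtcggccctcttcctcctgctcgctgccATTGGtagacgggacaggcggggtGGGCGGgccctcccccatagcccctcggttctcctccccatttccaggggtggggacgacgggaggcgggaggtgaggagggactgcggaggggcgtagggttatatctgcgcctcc

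Lamb1 held 2 GC boxes and 1 CCAAT box, Nid1 held 1 GC box, 1 CCAAT box and 1 TEAD site, and none of these letters stood in the Lamb2 window. Among the 8 windows, 7 had a GC box, 2 a CCAAT box, 1 a TEAD site and 0 an AP-1 site (6, 2, 1 and 0 of the 7 genes). Of the 32851 promoters in the table, 35.7%, 37.4%, 14.7% and 7.81% held them, respectively. GC boxes may overlap each other and were then each counted. Both the motifs and the 3 windows were chosen after the sequences and the values had been seen, so these counts only describe the letters. The Lamb2 window begins upstream of the gene start in the GENCODE annotation (chr9:108479736-108490530) and reaches into the annotated gene.

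The 3 alpha chains differed in their calls. Lama2, the chain of the cardiomyocyte basement membrane, was at 40.7, 49.6, 41.5 and 43.6 FPKM in control and at 71.8, 72.8, 55.3 and 65.2 FPKM in ANG II libraries. The ranges were apart, with ANG II library 3 the lowest of its group, and the mean rose from 43.9 ± 4.04 to 66.3 ± 8.06 FPKM (log2 fold change 0.58, SE 0.0948, limma adjusted p = 0.00127). Lama4, a chain of endothelial basement membranes, was at 43.1, 45.6, 38.4 and 39.9 FPKM and at 67.6, 60.04, 58.8 and 54.0 FPKM, respectively. Its groups were also apart, at 41.7 ± 3.22 and 60.1 ± 5.62 FPKM, and the log2 fold change, 0.51 with an SE of 0.0775, was just past the fold threshold (limma adjusted p = 8.07e-04). Without control library 3, control library 4 or ANG II library 1, the log2 fold change of Lama4 was 0.48, 0.49 or 0.46, below that threshold.

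Lama5, an alpha chain of vascular and epithelial basement membranes, was at 45.9, 48.0, 39.0 and 42.1 FPKM in control and at 52.1, 55.3, 49.6 and 64.8 FPKM with ANG II. The lowest ANG II library exceeded the highest control by a small margin only. The means of 43.7 ± 3.98 and 55.4 ± 6.66 FPKM gave a log2 difference of 0.33 (SE 0.0914, limma adjusted p = 0.0190), which did not reach the fold threshold and had an adjusted p of 0.00805 to 0.389 over the alternative settings. In all, 4 of the 6 laminin chains were called higher, against 14.0% of all tested genes, and under the 3 other scalings Lamc1 was the only 1 of them called. Among less abundant laminin chains, Lama3 was at 0.533 ± 0.0852 and 1.09 ± 0.187 FPKM (log2 difference 0.44, limma adjusted p = 0.00825), below the fold threshold by limma and called higher by voom on recovered fragments. Lamb3 was at 7.41 ± 1.31 FPKM in control and 5.33 ± 0.442 FPKM with ANG II (log2 difference -0.40, limma adjusted p = 0.0233) and Lamc3 at 0.292 ± 0.0372 and 0.179 ± 0.0642 FPKM (log2 difference -0.13, limma adjusted p = 0.250), neither past the threshold.

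The nidogens showed the 2 largest fold changes among the 10 genes. Nid1, the main nidogen of most basement membranes, was at 53.1, 53.4, 54.3 and 50.02 FPKM in control and at 119.9, 115, 109 and 121 FPKM in ANG II libraries. Its libraries were tightly grouped on both sides of a wide gap, and the mean rose from 52.7 ± 1.88 to 116 ± 5.47 FPKM (log2 fold change 1.12, SE 0.0503, limma adjusted p = 1.90e-06). Only 3.00% of tested genes had a larger log2 fold change than Nid1. Nid2, a related nidogen able to take over part of the same role, was at 7.17, 9.21, 6.69 and 5.64 FPKM and at 17.7, 15.1, 13.0 and 11.96 FPKM, respectively. Nid2 also rose without overlap, from 7.18 ± 1.5 to 14.5 ± 2.56 FPKM (log2 fold change 0.92, SE 0.149, limma adjusted p = 0.00118), with a wider spread relative to its mean.

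The library strand was not given in the sources used here, and 8.45% of the exon bases of Nid2 lie under Rtraf on the opposite strand, 3.86% of those of Lama2 under Gm48084 and 2.06% of those of Nid1 under Gm48682. Reads from such stretches cannot be told apart without strand. A further 1.83% of the 50-base words of Nid1 were shared with Gm2399.

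Of the 2 heparan sulfate proteoglycans, perlecan passed the fold threshold and agrin did not under the deposited scaling, and neither did under the 3 other scalings, where Hspg2 was at 0.34, 0.40 and 0.42. Hspg2 measured 71.1, 80.6, 73.8 and 71.1 FPKM in the controls and 115, 123, 90.3 and 114 FPKM in the ANG II libraries. ANG II library 3 stood lower than the other 3 but above all controls. The mean of Hspg2 rose from 74.1 ± 4.52 to 111 ± 14.2 FPKM (log2 fold change 0.56, SE 0.0911, limma adjusted p = 0.00119). Agrn, known for clustering acetylcholine receptors at the neuromuscular junction, measured 13.7, 14.8, 12.5 and 17.1 FPKM in the controls and 21.1, 19.6, 18.7 and 22.0 FPKM with ANG II. Its groups were apart, at 14.5 ± 1.94 and 20.4 ± 1.49 FPKM, and the log2 difference was 0.47 (SE 0.0941, limma adjusted p = 0.00391; 7.89e-04 to 0.0864 over the alternative settings). Without control library 4 or ANG II library 3, the difference of Agrn was 0.55 or 0.51, past the fold threshold.

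**Figure D2:**
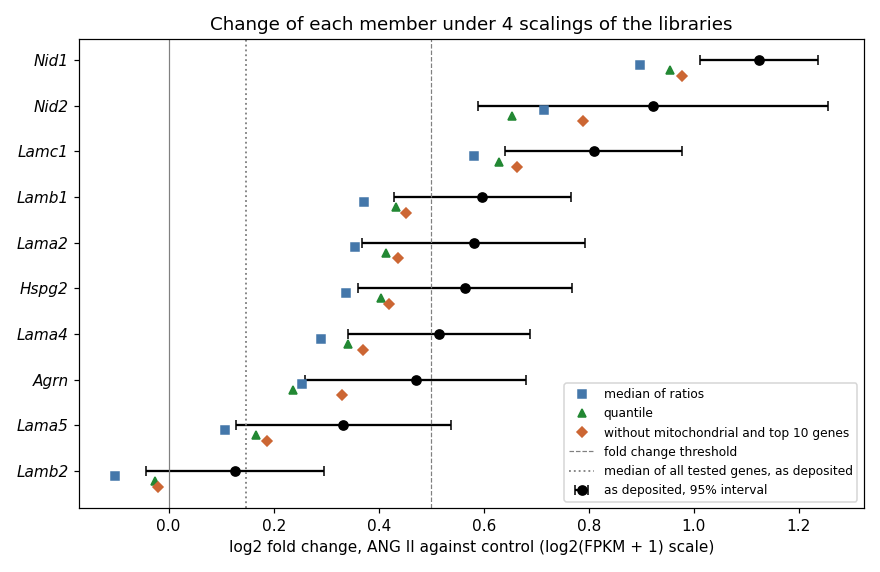
Log2 fold change of each gene, ANG II against control, on the log2(FPKM + 1) scale (horizontal axis). Black points with 95% intervals are from the values as deposited, coloured points are from 3 other scalings, the dashed line is the fold threshold of 0.5 and the dotted line the median of all tested genes (0.15). Nid1, Nid2 and Lamc1 stay right of the dashed line under all 4 scalings, and Lamb2 lies on both sides of 0.

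Levels between genes depended on the length by which fragments were divided. For 7 of the 10 genes the length behind the deposited FPKM equalled the mean of the gene's transcripts in GENCODE M21, and for Lama2, Lamb1 and Hspg2 it was also below the longest transcript. It was 1180 bases for Lamb2, whose longest annotated transcript is 5629 bases. That 4.77-fold gap was met or exceeded by 0.325% of 19076 tested genes with a known length, where the median was 1.56. By deposited FPKM, Lamb2 was the most abundant of the 10 genes in both groups, without overlap with Lamc1, the next.

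When fragments were instead divided by the longest annotated transcript, control levels (FPKM on the longest transcript) ran from 56.9 for Lamb2 through 39.1 for Hspg2, 33.8 for Lamc1, 30.4 for Nid1 and 25.3 for Lamb1. The alpha chains followed at 18.2 for Lama4, 15.0 for Lama2 and 12.5 for Lama5, ahead of Agrn at 9.05 and Nid2 at 4.97. Hspg2 and Lamc1, Lamc1 and Nid1, and Lama4 and Lama2 were neighbours whose control ranges overlapped. In the ANG II group the leading level was that of Nid1 at 67.0, and its range overlapped with that of Lamb2 at 62.3. Lamb2 overlapped in turn with Lamc1 at 59.4, and Lamc1 with Hspg2 at 58.3. On this scale the summed alpha chains went from 45.7 ± 3.58 to 64.8 ± 4.42, the beta chains from 82.1 ± 4.27 to 101 ± 8.60, and the gamma chain from 33.8 ± 3.02 to 59.4 ± 4.67.

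**Figure D3:**
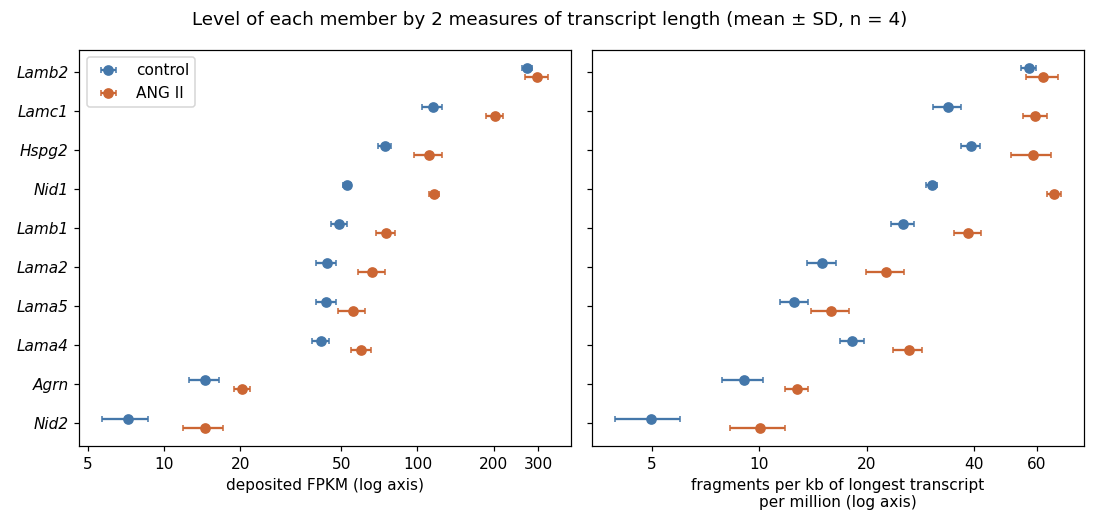
Level of each gene (mean ± SD, n = 4 per group, log axes) as deposited FPKM on the left and as FPKM on the longest annotated transcript on the right, with control in blue and ANG II in orange. Lamb2 stands apart from the rest at 271 and 297 FPKM on the left, while on the right its ANG II level (62.3) is next to those of Nid1 (67.0), Lamc1 (59.4) and Hspg2 (58.3).

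Ratios within a library do not change when a library is multiplied by a scaling factor, and 12 were compared with an exact two-sided permutation test over the 70 allocations of 4 against 4. The groups did not overlap in 7 of the 12, each with the smallest p this design allows (exact p = 0.0286; 0.0490 after Benjamini-Hochberg adjustment over the 12). Quantile scaling, which is not a single factor per library, moved the ratios (that of Col4a1 to Lamc1 from 0.29 to 0.37, for example) and left the same 7 without overlap. The log2 ratio of Lamb1 to Lamb2 was -2.47, -2.41, -2.40 and -2.58 in the controls and -1.86, -1.96, -1.95 and -2.18 in the ANG II libraries. All 4 ANG II ratios were higher, by a mean of 0.48 (SE 0.0794), although without control library 4 the exact permutation p was 0.0571. By the longest transcript, Lamb1 made up 30.7 ± 1.23% of beta chain level in control and 38.2 ± 2.19% in ANG II libraries (15.3 ± 0.746% and 20.2 ± 1.48% by deposited FPKM).

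Relative to Lamc1, both other kinds of laminin chain were lower with ANG II. The log2 ratio of the summed alpha chains to Lamc1 differed by -0.32 (SE 0.0504, lower in 4 of 4 ANG II libraries than in any control) and that of the summed beta chains by -0.60 (SE 0.0909, likewise). With the longest transcripts as lengths these differences were -0.31 and -0.52. The ratio of Hspg2 to Lamc1 differed by -0.24 (SE 0.0733), with an exact permutation p of 0.0571 to 0.0857 when any 1 control was left out. The ratio of the summed nidogens to Lamc1 was higher by 0.31 (SE 0.0658), with an exact permutation p of 0.0571 without ANG II library 4. That of Col4a1, a main chain of type IV collagen, to Lamc1 was higher by 0.29 (SE 0.0442). These 5 ratios share Lamc1 as their denominator and are not independent of each other.

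Among the alpha chains, and within the nidogen and proteoglycan pairs, no shift passed the test. The log2 ratio of Lama4 to Lama2 differed by -0.07 (SE 0.101, exact p = 0.629, adjusted p = 0.657), that of Lama5 to Lama2 by -0.25 (SE 0.122, exact p = 0.114, adjusted p = 0.171) and that of Lama5 to Lama4 by -0.19 (SE 0.138, exact p = 0.229, adjusted p = 0.305). In ANG II library 4 the ratio of Lama5 to Lama4 (0.26) was above all controls, while in the other 3 ANG II libraries it was below all of them. Without that library the groups of both Lama5 ratios were apart, at differences of -0.34 to Lama2 and -0.31 to Lama4 (exact p = 0.0286, unadjusted). The ratio of Nid2 to Nid1 differed by -0.12 (SE 0.180, exact p = 0.543, adjusted p = 0.651) and that of Agrn to Hspg2 by -0.07 (SE 0.135, exact p = 0.657, adjusted p = 0.657), in both cases by less than the spread between libraries.

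**Figure D4:**
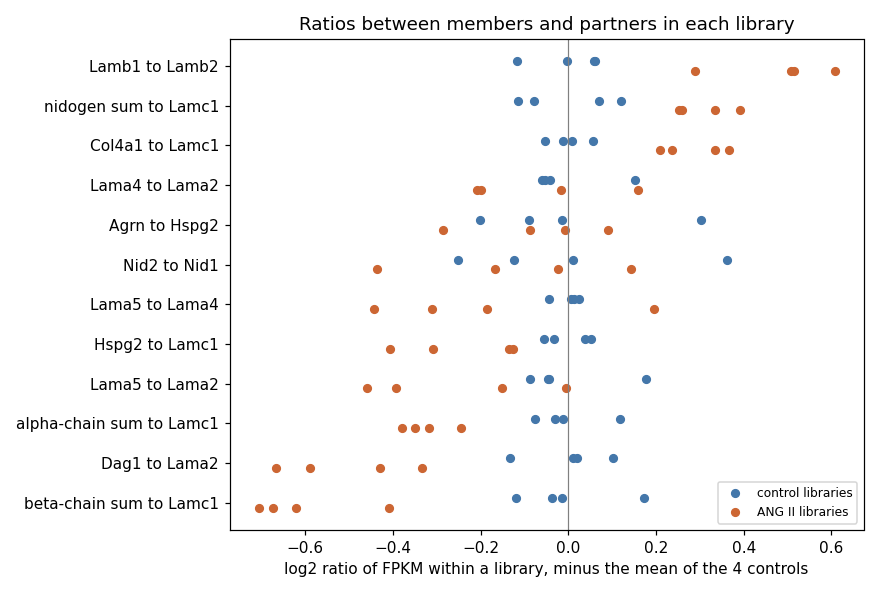
Log2 ratio of FPKM within each library, minus the mean of the 4 controls (horizontal axis), for the 12 ratios, with control libraries in blue and ANG II libraries in orange. The ratios of Lamb1 to Lamb2, of the nidogens to Lamc1 and of Col4a1 to Lamc1 lie to the right of all controls in all 4 ANG II libraries, and those of the alpha chains, beta chains and Hspg2 to Lamc1 and of Dag1 to Lama2 lie to the left.

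The cell surface receptors of laminin were described by 2 lists. Among 9 genes of integrin-type receptors and their partners, 2 were called higher and 0 lower, with a median log2 fold change of 0.35. Among all tested genes 14.0% were called higher, so nothing particular is read from this count or from that of the dystroglycan complex given next. Itgb1, the beta subunit shared by most laminin-binding integrins, rose from 279 ± 12.5 to 416 ± 23.4 FPKM (log2 fold change 0.57, limma adjusted p = 7.22e-05), and Itga2 rose from 0.312 to 0.960 FPKM on average. Under the median of ratios and quantile scalings 0 of these 9 passed, and without mitochondrial and top 10 genes 1 did; voom on recovered fragments called 3. Itga7, the alpha subunit of the main muscle laminin receptor, was at 51.1 ± 5.09 and 58.9 ± 4.17 FPKM (log2 difference 0.20, limma adjusted p = 0.0683), and Itga6 at 46.4 ± 1.93 and 60.2 ± 4.13 FPKM (log2 difference 0.37, limma adjusted p = 0.00124), below the fold threshold.

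Of 14 genes of the dystroglycan and dystrophin complex, which anchors laminin to the muscle cytoskeleton, 3 were called higher and 0 lower (median log2 fold change 0.22): Sntb2 by 0.97, Sgce by 0.68 and Dtnb by 0.60. The count was 1 under the median of ratios and quantile scalings and 3 without mitochondrial and top 10 genes. Dag1, the precursor of dystroglycan itself, was at 142 ± 4.20 FPKM in control and 151 ± 7.40 FPKM with ANG II (log2 difference 0.09, limma adjusted p = 0.210). The log2 ratio of Dag1 to Lama2 was 1.81, 1.57, 1.72 and 1.71 in the controls and 1.04, 1.11, 1.37 and 1.27 in the ANG II libraries. Every ANG II ratio was below every control ratio, by a mean log2 difference of -0.51 (SE 0.0898, exact p = 0.0286, adjusted p = 0.0490). Of the genes that build the laminin-binding sugar of dystroglycan, 14 were tested and 0 were called by limma (median log2 fold change 0.12). At an unadjusted p under 0.05, 3 of them were higher and 1 lower, and voom on recovered fragments called 2 higher.

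Other basement membrane components were counted in the same fit, in which 14.0% of all tested genes were called higher. Of 8 collagen genes of basement membranes, 5 were called higher and 0 lower (median log2 fold change 0.86): Col18a1 by 1.69, Col15a1 by 1.38, Col4a1 by 1.10, Col4a2 by 1.00 and Col4a5 by 0.72. Col4a3, Col4a4 and Col4a6 were at means of 0.440 to 2.96 FPKM in either group and did not pass by limma, while voom on recovered fragments called 6 of the 8, Col4a6 included. Of 17 further basement membrane proteins, 7 were called higher and 0 lower (median 0.41), led by Sparc, which binds collagen (1.85), Fbln2 (1.45) and Ecm1 (1.41).

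For the sugar chains of perlecan and agrin, 20 genes of heparan sulfate synthesis and editing were counted, of which 7 were called higher, against 14.0% of all tested genes, and 0 lower (median 0.34). The largest changes were those of Sulf1, a sulfatase acting on heparan sulfate outside the cell (1.58), Xylt1, which starts the sugar chain (0.93), and Hs6st2 (0.88). Of the agrin receptor complex, 3 genes were tested, with 0 called higher and 1 lower (median 0.18), against 1.41% of all tested genes called lower. The gene called lower was Rapsn, which anchors acetylcholine receptors, at 6.91 ± 1.21 and 4.42 ± 0.793 FPKM (log2 fold change -0.54, limma adjusted p = 0.0139). Under the 3 other scalings the numbers called higher were 4 to 5 of the collagens, 4 to 5 of the further proteins and 5 of the heparan sulfate genes, against 8.62%, 7.32% and 10.2% of all genes.

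**Figure D5:**
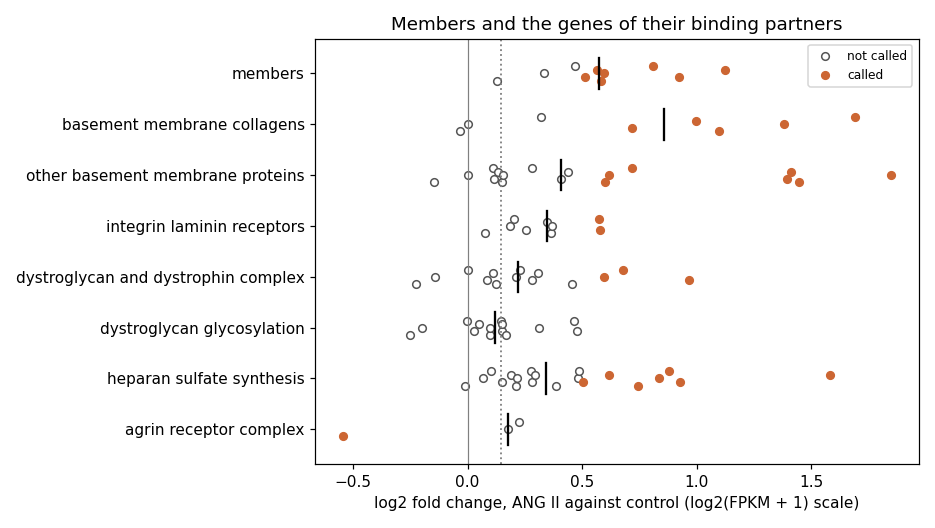
Log2 fold change, ANG II against control (horizontal axis, log2(FPKM + 1) scale), of the 10 genes and of the tested genes of 7 related lists. Filled points were called, open points were not, black bars are list medians and the dotted line is the median of all tested genes (0.15). Among the lists drawn, the collagens have the highest median (0.86), and that of the dystroglycan glycosylation genes is 0.12.

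The genes whose pattern over the 8 libraries was most like that of Lamc1 were not among the 10. Over the 9007 genes averaging 5 FPKM or more, the root mean square difference from Lamc1 (centred log2(FPKM + 1) values) was smallest for Fap, a protease of activated fibroblasts (0.0394; its group means of 3.59 and 7.13 FPKM in control and ANG II put it past that filter only through the ANG II group), followed by Tcaf1 (0.0494), Cyth3 (0.0581), Hip1 (0.0599) and Ptgfrn (0.0611). Centring over all 8 libraries leaves the difference between the groups in this measure. The log2 fold changes of these genes were 0.75 to 0.84, near that of Lamc1 (0.81). The order of the low genes depended on the pseudocount: with 0.1 in place of 1, a setting chosen after seeing the data, Fap moved to rank 38, Tcaf1 to rank 18 and Ptgfrn to rank 7, and Cyth3 and Hip1 led. The closest of the other 9 genes was Lama2 at 0.129, rank 159, then Lamb1 at 0.132, rank 179. Lamb2 was the farthest, at 0.363 and rank 4608.

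In bulk tissue a change in the number of cells of a type and a change in RNA per cell cannot be told apart, and markers of several cell types moved with these results. Among all tested genes 14.0% were called higher and 1.41% lower, so nothing particular is read from the endothelial count below. Of 12 fibroblast markers, 11 were called higher (median log2 fold change of the 12, 1.47). The summed level of all 12 was 1143 to 1545 FPKM in control and 3263 to 3613 FPKM in ANG II libraries. Gsn, the most abundant of them among the controls, moved the opposite way, from 819 ± 97.4 to 587 ± 122 FPKM. Its groups overlapped, and its log2 difference of -0.496 (limma adjusted p = 0.0280) did not reach the fold threshold. Of 12 endothelial markers, 1 was called higher (Pecam1, median 0.14), with sums of 702 to 752 and 794 to 885 FPKM, and the count fell to 0 when library 1 or library 3 of the ANG II group was left out. Of 12 mural cell markers, 5 were called higher and 1 lower (median 0.32; sums of 1469 to 1686 and 2056 to 2938 FPKM). Des carried most of these sums, at 983 ± 63.1 FPKM in control and 1886 ± 384 FPKM with ANG II. Of 10 macrophage markers, 9 were called higher (median 1.41; 186 to 227 and 450 to 602 FPKM). Under the 3 other scalings 9 to 11 fibroblast, 0 endothelial, 2 to 3 mural and 9 macrophage markers were called higher. Those scalings called 8.62%, 7.32% and 10.2% of all genes higher.

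Of 12 cardiomyocyte genes, 1 was called higher (Nppa) and 2 lower (Tnni3 and Myh6), with sums of 52784 to 53700 FPKM in control and 40174 to 42896 FPKM with ANG II. The median log2 fold change of the 12 was -0.28. With no fold threshold, 6 of the 12 were lower at a limma adjusted p under 0.05, as were 951 of the 19364 tested genes. All 5 erythroid markers were called higher (97 to 487 and 581 to 2083 FPKM), as were 2 of 8 Schwann cell markers, 2 of 6 atrial markers, 2 of 4 skeletal muscle markers and 1 of 4 epithelial markers tested. Across all tested genes 14.0% were called higher. Nothing particular is read from the Schwann cell, atrial, skeletal muscle or epithelial counts. The atrial count was unstable: 0, 0 and 1 under the 3 other scalings, 4 by voom and 1 to 4 when 1 library was left out. The atrial myosin light chains Myl7 and Myl4 did not overlap between the groups (log2 differences 2.38 and 2.23, each with a limma adjusted p of 0.0557). Under the 3 other scalings the counts were 5 erythroid, 1 to 2 Schwann cell, 2 skeletal muscle, 1 epithelial and 1 cardiomyocyte marker called higher, against 8.62%, 7.32% and 10.2% of all genes. None of the 6 mesothelial and 5 adipocyte markers tested passed by limma or voom, and 0 had an unadjusted p under 0.05. Of the skeletal muscle markers Myh4 and Myog, and of the epithelial markers Cdx2, were listed at 0 in every library. The part of these cell types in the changes of the laminins and their linkers was not tested.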

How the data were processed

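RNA-seq libraries of oligo(dT)-enriched mRNA were analysed of 4 control and 4 ANG II left ventricle samples. The authors deposited FPKM values, 1 column per library without pooling. The submitters' processing notes name Bowtie2, HISAT and RSEM; their roles and versions, the genome build, the annotation and the use of strand were not given in the sources used here. Groups were taken from the treatment labels.

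limma 3.58.1 (R 4.3.3; lmFit, then eBayes with trend) was fitted to log2(FPKM + 1) of all 8 libraries, for genes whose mean was 0.1 FPKM or higher, with Benjamini-Hochberg adjustment over the 19364 genes. A pseudocount of 1 understates fold changes of low genes. Genes were called at adjusted p under 0.05 and an absolute log2 fold change above 0.5, the study's thresholds, read here as log2. Ratios used FPKM without a pseudocount and exact permutation tests (Python 3.11.15). The fit was checked on simulated data.

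All 80 values of the 10 genes were whole fragments within 0.02; over a library's other low genes, 97.9 to 98.2% of those with several exons and 99.3 to 99.5% of those with 1 exon were whole within 0.1. The length divisor recovered from the values equalled the mean transcript length of GENCODE M21 (GRCm38) for 7 of the 10 genes; for Lama2, Lamb1 and Hspg2 it was 3290, 2971 and 7475 bases. Gene positions are from GENCODE M21, which lists 55141 of the table's 55679 gene IDs; whether the authors used this release is not known. Levels per longest transcript were added after the divisors were seen. Counting errors cover counting only.

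Each of the 10 genes is named; of the other lists, the called genes with the largest change (at most 3), the gene highest in control, and any receptor or basement membrane collagen gene could be named. Lama3, Lamb3, Lamc3, Myl7, Myl4 and the markers listed at 0 were named after their values were seen. The genes, lists, ratios and tests were chosen with earlier results of these data known. The list of further laminin chains is reported in part. Of 17 dystroglycan glycosylation symbols, 15 were matched. Alternatives were another pseudocount, other filters, 3 scalings, no variance trend, voom on the recovered fragments, a replicate block, other fold thresholds and leaving out each library.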

Additional observations from a re-analysis of the deposited data

Results flagged for a closer look

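In 2 of 44 groups of 4 values tested, 1 library lay far from the other 3 (gap over range above Dixon's 95% critical value); chance gives about 1 in 20 groups. Both concern control library 1 and the alpha chains. The control log2 ratio of Lama4 to Lama2 was 0.08 in control library 1 and -0.12, -0.11 and -0.13 in the other 3 (gap over range 0.914). The control log2 ratio of Lama5 to Lama2 was 0.17 in control library 1 and -0.0493, -0.0905 and -0.0506 in the other 3 (gap over range 0.844). Neither ratio's difference between the groups passed the exact permutation test. The 2 ratios share Lama2, which was lowest among the controls in that library (40.7 FPKM).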

How the results depend on the processing

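The number of the 10 genes called depended on the scaling of the libraries and on the fold threshold. It was 7 as deposited and 3 (Nid1, Nid2 and Lamc1) under the median of ratios, under quantile scaling and without mitochondrial and top 10 genes, and 1 (Nid1) at a log2 fold change above 1. The share of calls that were higher was 90.8% as deposited and 67.5%, 59.1% and 78.7% under those scalings, which put the median log2 fold change of all genes at 0.0040, -0.0396 and 0.054 in place of 0.15. Lamb2 reversed to -0.10, -0.0255 and -0.0204, respectively. All genes called numbered 2981, against 6447 with no fold threshold and 795 at a threshold of 1; voom on recovered fragments called 3995, and 7 of the 10.

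Leaving out 1 library gave 2763 to 3109 called genes, 6 to 8 of the 10 and 7 to 9 ratios without overlap; Lama4 lost its call without control 3, control 4 or ANG II 1, Agrn gained one without control 4 or ANG II 3, and the ratio of Agrn to Hspg2 ranged from -0.14 to 0.0285, reversed without control 4. In these counts of ratios, a ratio counts when its groups do not overlap; by the exact permutation p, Hspg2 to Lamc1 missed 0.05 without any 1 control (0.0571 to 0.0857), Lamb1 to Lamb2 without control 4 (0.0571) and the nidogens to Lamc1 without ANG II 4 (0.0571), where 0.0286 could be reached. With the replicate number as a block, 2968 genes and 7 of the 10 were called; same-numbered samples did not deviate together (correlations of -0.0163, 0.0620, -0.0320 and -0.00929), so the numbers give no pairing. The ratios kept their direction and call with the longest transcripts as lengths, an alternative chosen after seeing the data. Depth limited Nid2 most, at 291 fragments in its lowest library.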
